A study of Mus musculus with 3 samples.

Results

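Mature dendritic cells that carried Il12b RNA were examined in mouse Peyer's patches, the lymphoid follicles of the small intestine. They were 219 of the 15434 cells that passed the filters. The members were chosen by their measured UMIs (unique transcript molecules). A cell had at least 500 detected genes and at most 10% mitochondrially encoded UMIs. Per 10,000 of its UMIs it held under 40 of the lysozyme and complement genes Lyz1, C1qa, C1qb and C1qc together and at least 15 of Ccr7 and Fscn1 together. It also held fewer than 3 UMIs of the B cell gene Cd79a and at least 3 UMIs of Il12b. Cells that met every limit except the last and held 0 UMIs of Il12b, from the same library, are the cells they were set against. Below, the first are called Il12b-expressing cells and the second Il12b-zero cells. The levels of Il12b, Ccr7, Fscn1, Lyz1, C1qa, C1qb, C1qc and Cd79a are therefore a description of the choice and support nothing.

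The study sorted live CD11c-positive phagocytes (conventional dendritic cells of types 1 and 2, lysozyme-making LysoDC and macrophages) from female C57BL/6Rj mice and sequenced them by droplet single-cell RNA sequencing of transcript 3' ends. The CpG library came from mice injected into the peritoneum with 125 µg of CpG, unmethylated DNA that Toll-like receptor 9 recognises. The R848 library came from mice injected with 10 µg of R848, a small molecule that Toll-like receptor 7 recognises. Both agents were given in 100 µL of PBS 9 h before collection, and the Control library came from mice that received no treatment. Each library pooled 12 mice, with 85 Peyer's patches for CpG, 90 for R848 and 88 for Control. With a single library in each group there is no replicate, and no test was run. Cells of a library are not replicates. Intervals are at 95% and hold the error of counting alone.

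Il12b encodes p40, the chain shared by interleukin-12 and interleukin-23. Interleukin-12 pairs p40 with p35 (Il12a) and drives T helper type 1 and natural killer cell responses, while interleukin-23 pairs it with p19 (Il23a) and sustains interleukin-17-making cells. Toll-like receptors 7 and 9 sit in endosomes and signal through MyD88 to NF-kB and interferon regulatory factors, which act on the Il12b promoter. Dendritic cells that mature raise Ccr7, the receptor that guides them to T cell zones, and Fscn1, an actin-bundling protein.

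The regions before the starts of Il12b and of 2 further cytokine genes, Il6 and Tnf, are shown because Il6 and Tnf were higher in Il12b-expressing cells of all 3 libraries. Each is the 250 bases before the start in RefSeq's annotation of GRCm38.p6, the assembly also called mm10, written 5′ to 3′ on the gene's own strand, with motif matches in capitals. Il12b lies at chr11:44399813-44400062 on the plus strand, Il6 at chr5:30012864-30013113 on the plus strand and Tnf at chr17:35202008-35202257 on the minus strand.
Il12b: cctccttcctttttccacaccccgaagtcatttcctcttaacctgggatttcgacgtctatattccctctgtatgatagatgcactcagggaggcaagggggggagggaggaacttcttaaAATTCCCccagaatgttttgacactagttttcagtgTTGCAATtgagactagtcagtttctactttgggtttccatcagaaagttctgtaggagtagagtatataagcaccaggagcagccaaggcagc
Il6: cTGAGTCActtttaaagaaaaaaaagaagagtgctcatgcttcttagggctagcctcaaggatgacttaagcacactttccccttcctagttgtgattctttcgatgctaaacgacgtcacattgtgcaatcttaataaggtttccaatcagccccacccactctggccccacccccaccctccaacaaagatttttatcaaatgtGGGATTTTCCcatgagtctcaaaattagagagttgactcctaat
Tnf: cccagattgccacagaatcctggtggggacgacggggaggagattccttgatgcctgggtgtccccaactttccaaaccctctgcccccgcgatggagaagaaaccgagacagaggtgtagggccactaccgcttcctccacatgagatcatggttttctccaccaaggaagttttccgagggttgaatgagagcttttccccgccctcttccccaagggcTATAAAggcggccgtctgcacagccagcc
Motifs were searched on both strands. In the Il12b window the capitals mark AATTCCC, a half-site of the NF-kB Rel proteins, from base 129 to base 123 before the start, and TTGCAAT, a core that C/EBP proteins bind, from base 93 to base 87. In the Il6 window they mark 1 match to the 10-base NF-kB consensus, from base 44 to base 35, and 1 to the AP-1 motif TGANTCA, from base 249 to base 243. In the Tnf window they mark TATAAA, from base 29 to base 24. A 10-base interferon-response motif, made of a pair of GAAA blocks 2 bases apart, had no match in the 3 windows. Of 32817 RefSeq promoter windows of the same length, 3.09% held AATTCCC, 1.96% TTGCAAT, 3.9% the 10-base NF-kB consensus, 6.75% TGANTCA, 12.4% TATAAA and 2.97% the 10-base interferon-response motif. The motifs were picked with the sequences in view, and a match describes letters, not a bound site. In GENCODE release M21 on GRCm38 the Il12b gene spans chr11:44400063-44414033, Il6 chr5:30013114-30019981 and Tnf chr17:35199381-35202007. Gm42806, a gene model on the minus strand, starts 4.32 kb before Il6. Lta ends 1.16 kb before the start of Tnf on the same strand.

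The 3 libraries were of like depth: 43767864 UMIs and 5023 passing cells for CpG, 46556726 and 5107 for R848 and 43537067 and 5304 for Control. Between 33 and 42 cell barcodes were shared by each pair of libraries, none of them a member's in both. The list of maturation genes, without Ccr7 and Fscn1, had median log2 ratios of 2.61 in CpG, 3.18 in R848 and 2.87 in Control for Il12b-expressing cells over cells with fewer than 2 UMIs of Ccr7 and Fscn1 per 10,000, beside -0.16, -0.24 and -0.30 for all genes. Since the rule picked cells by maturation genes, this describes the choice. Of the markers of other cells, Cd3e, Siglech, S100a8 and Ly6g had 0 UMIs in Il12b-expressing cells of all 3 libraries. Others were present. The B cell gene Cd79b and the plasmacytoid cell gene Tcf4 stood higher than in Il12b-zero cells in both treated libraries. The sums of whole marker lists are given with the lineage results.

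Members numbered 131 in CpG, 48 in R848 and 40 in Control. They made up 4.47% of mature cells in CpG (interval 3.75% to 5.28%), 2.14% in R848 (1.58% to 2.83%) and 11.6% in Control (8.39% to 15.4%), so the share was highest in the untreated library. The mature cells themselves were 2933 (58.4% of passing cells) in CpG, 2244 (43.9%) in R848 and 346 (6.52%) in Control. As a share of all passing cells the order was different, at 2.61% in CpG (2.19% to 3.09%), 0.940% in R848 (0.694% to 1.24%) and 0.754% in Control (0.539% to 1.03%). The CpG interval did not overlap the others, and those of R848 and Control overlapped. These intervals do not hold the spread between mice, and a difference between libraries was not tested. Each cell was then thinned to 5000 UMIs, with 1112 CpG, 953 R848 and 159 Control mature cells too shallow to keep. Of the mature cells kept, the share with at least 3 Il12b UMIs was 4.12%, 2.40% and 17.1%. Members kept were 95 of 131 in CpG, 38 of 48 in R848 and 36 of 40 in Control. Il12b-zero cells kept were 1620 of 2621, 1194 of 2107 and 144 of 293. Il12b-zero cells were lost more often than members, so the thinned shares are over a changed set of cells and do not isolate depth.

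**Figure D1:**
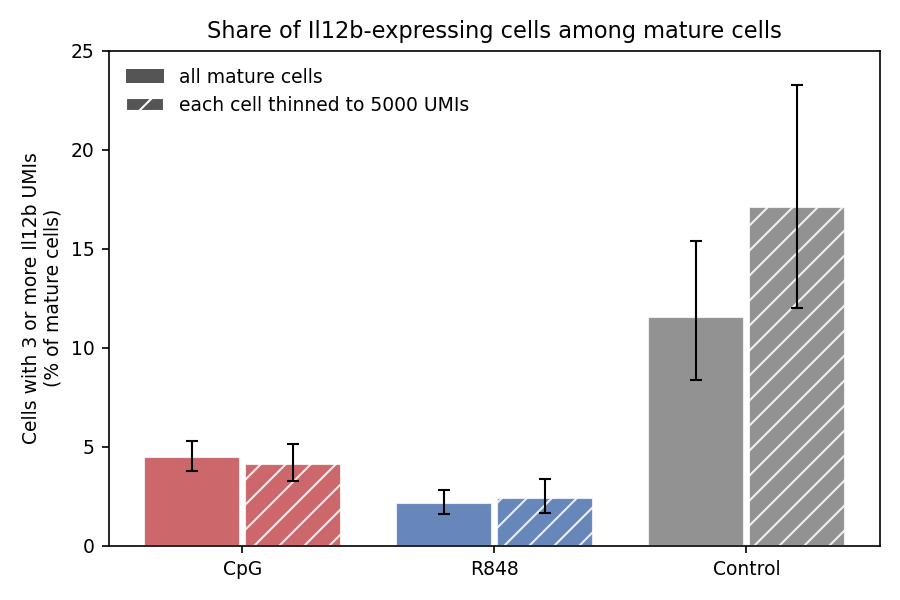
Cells with 3 or more Il12b UMIs as a percentage of mature cells in the CpG, R848 and Control libraries, before (plain bars) and after (hatched bars) thinning each cell to 5000 UMIs. Hatched bars leave out cells too shallow to thin. Error bars are 95% Clopper-Pearson intervals for counting error. Control stands highest at 11.6% and 17.1%, CpG next at 4.47% and 4.12%, R848 lowest at 2.14% and 2.40%.

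Il12b was also counted in cells that are not mature dendritic cells by the rule, as a measure of background. No cell with 3 or more Cd79a UMIs held 3 or more Il12b UMIs, of 60 in CpG, 92 in R848 and 82 in Control, at median depths of 8580, 7899 and 6698 UMIs. So few cells allow shares of up to 5%, 3.26% and 3.66%, which in CpG and R848 is above the member share of mature cells. Among cells with fewer than 2 UMIs of Ccr7 and Fscn1 per 10,000, 1 of 416 in CpG, 1 of 424 in R848 and 0 of 2192 in Control reached 3 Il12b UMIs, which is 0.240%, 0.236% and up to 0.137%. The part of free RNA in the number of members was not tested. The medians in the members were 6394 UMIs in CpG, 5941 in R848 and 7423 in Control, against 5775, 5379 and 4943 in their Il12b-zero cells, so members were the deeper cells in each library. The rule left out part of the cells with 3 or more Il12b UMIs. In CpG, 131 of 151 such cells were members, in R848 48 of 498 and in Control 40 of 64. In R848, 449 of the others were over the lysozyme and complement limit, and 125 of these also reached the Ccr7 and Fscn1 limit, so the number of R848 members depends on the lysozyme and complement limit.

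The Il12b level within members was uneven. In CpG the lowest member held 3 UMIs, the median 9 and the highest 296. In R848 these were 3, 8.5 and 328, and in Control 3, 14 and 87. The 5 highest cells held 30.1% of the members' Il12b UMIs in CpG, 58.0% in R848 and 40.0% in Control, so few cells set the sum, most of all in R848. The summed level was 3615 CPM (UMIs scaled to an equal total for each class of cells) in CpG members, 4148 in R848 members and 3040 in Control members. At the threshold, 23 CpG, 14 R848 and 4 Control cells held exactly 3 UMIs, and 55, 19 and 4 mature cells held 2.

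**Figure D2:**
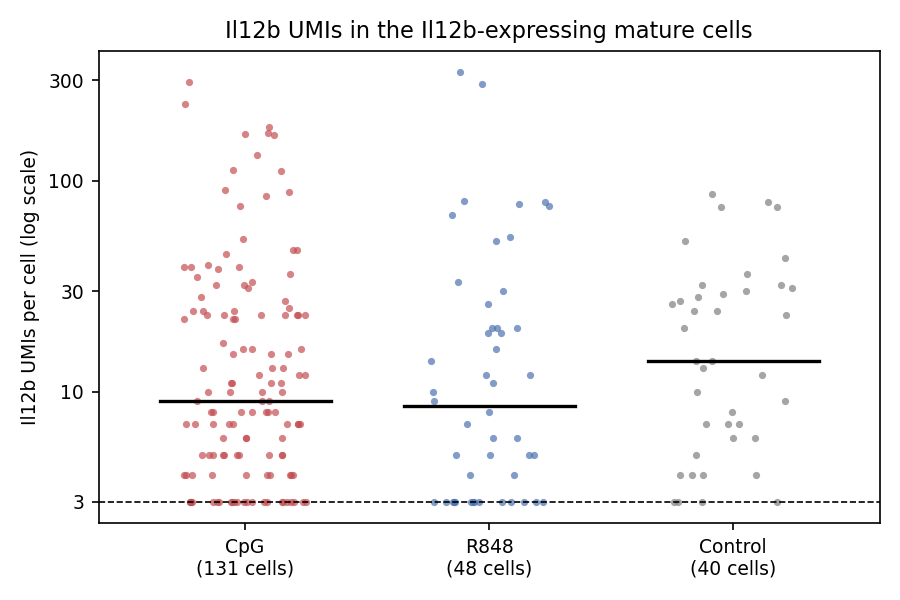
Il12b UMIs per cell on a log scale in the 131 CpG, 48 R848 and 40 Control Il12b-expressing mature cells. Each point is a cell, the bar is the median (9, 8.5 and 14 UMIs) and the dashed line is the threshold of 3 UMIs. The 2 highest R848 cells stand apart from the other R848 cells.

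The main comparison set Il12b-expressing against Il12b-zero mature cells of the same library. Log2 ratios were taken of CPM with 5 CPM added to both classes, for genes with at least 20 CPM in 1 of them. A gene was called higher or lower when it differed at least 2-fold on that scale and the interval of the count ratio left out 1. In CpG 159 of 4616 genes (3.44%) were higher and 81 (1.75%) lower. In R848 398 of 4528 (8.79%) were higher and 121 (2.67%) lower. In Control 153 of 4364 (3.51%) were higher and 225 (5.16%) lower. The median log2 ratio of all genes compared was 0.10 in CpG, 0.20 in R848 and -0.13 in Control. With the ratios centred on these medians the higher and lower calls were 134 and 114 in CpG, 248 and 164 in R848 and 197 and 191 in Control. The surplus of higher calls in the treated libraries therefore shrank with the scale but remained, while the surplus of lower calls in Control was lost. Of the higher calls, 77 were shared by CpG and R848, which is 48.4% of the CpG and 19.3% of the R848 calls.

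In all 3 libraries 14 genes were called higher. They were the cytokines Il6 and Tnf, the chemokines Ccl3 and Ccl4, the NF-kB regulators Nfkbiz and Tnip3, the signalling inhibitor Socs3, the transcription factors Irf8 and Nr4a3, the prostaglandin synthase Ptgs2, the integrin chain Itgb8, and Dtnbp1, Mylip and Gm42806. In all 3 libraries 5 genes were called lower: Mdk, S100a10, Ctrc, Spib and Amica1. Spib, a transcription factor of the Ets family, had 43.7 CPM in Il12b-expressing and 97.3 CPM in Il12b-zero cells of CpG, 64.8 and 160 CPM in R848, and 13.2 and 85.5 CPM in Control. Gm42806, the gene model beside Il6, had 129 against 23.8 CPM in CpG, 53.5 against 10.1 CPM in R848 and 39.7 against 14.3 CPM in Control. Both lists were read from the calls after the values were seen.

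Among cytokines, Il6, which drives the acute phase and T helper 17 responses, was higher in the members of every library. In CpG it had 742 CPM in Il12b-expressing cells and 205 CPM in Il12b-zero cells, a ratio of 3.61 (3.33 to 3.92). In R848 it had 332 CPM in Il12b-expressing cells and 21.4 CPM in Il12b-zero cells, a ratio of 15.5 (12.4 to 19.3). In Control it had 301 CPM in Il12b-expressing cells and 47.1 CPM in Il12b-zero cells, a ratio of 6.39 (4.66 to 8.78). The gap was widest in R848, where the Il12b-zero cells were lowest. Il6 UMIs were found in 117 of 131 CpG members (89.3%), 28 of 48 R848 members (58.3%) and 20 of 40 Control members (50%), against 42.9%, 9.49% and 14.7% of Il12b-zero cells. Thinned to 5000 UMIs, those shares were 85.3%, 52.6% and 41.7% of members, against 40.6%, 8.21% and 15.3% of Il12b-zero cells. In cells with fewer than 2 UMIs of Ccr7 and Fscn1 per 10,000, whose median depths were 9041, 7857 and 6527 UMIs, Il6 was at 5.67 CPM in CpG, 5.87 in R848 and 4.05 in Control.

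Tnf, the cytokine tumour necrosis factor, had 149 CPM in Il12b-expressing and 22.7 CPM in Il12b-zero cells of CpG, 73.2 and 6.97 CPM in R848, and 248 and 15.5 CPM in Control. The log2 ratios were 2.47 in CpG, 2.71 in R848 and 3.63 in Control, so Tnf was called higher in each. Il6 and Tnf UMIs occurred together in 57 of 131 CpG members, 10 of 48 R848 members and 12 of 40 Control members. Neither was seen in 9, 17 and 16 members. The neighbouring gene Lta, which encodes lymphotoxin alpha, was called higher in the treated libraries, with 112 against 9.05 CPM in CpG (log2 ratio 3.06) and 73.2 against 1.51 CPM in R848 (3.59). In Control it had 2 UMIs in 40 members and 2 in 293 Il12b-zero cells. Of the list of other cytokines, 2 of 5 measured genes were higher in CpG, 4 of 7 in R848 and 2 of 6 in Control, with 1, 0 and 0 lower. The list medians were 0.99, 1.40 and 0.49 in log2, beside 0.10, 0.20 and -0.13 for all genes. The shares of all genes called higher were 3.44%, 8.79% and 3.51%. The 1 lower gene was Il15 in CpG, a cytokine that supports natural killer and memory T cells, at 41.6 CPM in Il12b-expressing and 89.5 CPM in Il12b-zero cells.

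The partner chains of p40 were scarce. Il12a had 0 UMIs in Il12b-expressing cells of every library, which allows up to 3.12 CPM in CpG, 8.45 in R848 and 9.92 in Control. Il23a was found in 0 of 131 CpG, 2 of 48 R848 and 4 of 40 Control members, and 33 of its 34 UMIs in R848 came from 1 cell. Of the chains other than p40, 0 of 2 measured genes were called higher in CpG, 3 of 3 in R848 and 2 of 2 in Control. The R848 count includes Il23a, whose call rests on that 1 cell. Among all genes 3.44% in CpG, 8.79% in R848 and 3.51% in Control were called higher. So few chains were not tested against all genes. Ebi3 and Il27, the 2 chains of interleukin-27, were both detected in 44 CpG, 9 R848 and 4 Control members. Ebi3 had 606 CPM in Il12b-expressing and 335 CPM in Il12b-zero cells of CpG, under the 2-fold limit. It had 352 and 98.8 CPM in R848 and 185 and 72.5 CPM in Control, and was called higher in both. Il27 had 168 and 114 CPM in CpG, 70.4 and 26.1 CPM in R848 and 46.3 and 14.9 CPM in Control.

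Chemokine genes were called higher in Il12b-expressing cells for 7 of 12 measured in CpG, 4 of 9 in R848 and 6 of 9 in Control, and none was lower. Their median log2 ratios were 1.29, 0.48 and 1.30. For all genes the medians were 0.10, 0.20 and -0.13, and 3.44%, 8.79% and 3.51% were called higher. Ccl4, an inflammatory chemokine, had 511 CPM in Il12b-expressing and 40.7 CPM in Il12b-zero cells of CpG, 92.9 and 8.95 CPM in R848, and 453 and 1.86 CPM in Control. In Control 90 of its 137 member UMIs came from 1 cell, and without that cell the log2 ratio was 4.58 in place of 6.06. Ccl5, a chemokine that attracts T cells, differed between libraries. It had 15054 CPM in Il12b-expressing and 5664 CPM in Il12b-zero cells of CpG and 15932 and 5731 CPM in R848, log2 ratios of 1.41 and 1.47. In Control it had 919.5 CPM in Il12b-expressing and 1204 CPM in Il12b-zero cells, a log2 ratio of -0.39. Ccl17 and Ccl22, ligands of CCR4, were called higher in Control alone of the 3 comparisons. Ccl17 had 720 and 617 CPM in CpG, 318 and 226 CPM in R848, and 2239 and 289 CPM in Control. Whether these ratios differ between libraries was not tested, since each group is 1 library.

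Ligands that instruct T cells were higher in part. Of the costimulatory and checkpoint list 4 of 20 measured genes were called higher and 2 lower in CpG, 12 of 20 and 1 in R848, and 4 of 19 and 1 in Control, with medians of 0.12, 1.46 and 0.65. All genes had 3.44%, 8.79% and 3.51% called higher and medians of 0.10, 0.20 and -0.13. Dll4, a Notch ligand, had 268 CPM in Il12b-expressing and 101 CPM in Il12b-zero cells of CpG and 90.1 and 9.91 CPM in R848. In Control it had 52.9 and 39.7 CPM and was not called. Cd40, the receptor through which T cells license dendritic cells, had 909 and 818 CPM in CpG, 656 and 253 CPM in R848, and 605 and 256 CPM in Control, and was called higher in the last 2 libraries. Cd80 and Cd86, the ligands of CD28, were called higher in R848, at 228 against 70.1 CPM and 296 against 92.2 CPM. Itgb8, the chain of an integrin that activates TGF-beta, had UMIs in 10 CpG, 8 R848 and 7 Control members. Tnfsf15, which encodes the cytokine TL1A, had 73.9 and 5.003 CPM in CpG and 33.8 and 2.54 CPM in R848, and 1 UMI in Control members. Tnfrsf4, the OX40 receptor, was called lower in CpG, at 88.5 against 258 CPM, and in R848, at 194 against 447 CPM.

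Of the transcription factor list, 4 of 22 measured genes were called higher in CpG, 8 of 23 in R848 and 4 of 26 in Control, with 0, 0 and 1 lower and medians of 0.24, 0.47 and 0.20. Among all genes 3.44%, 8.79% and 3.51% were called higher, with medians of 0.10, 0.20 and -0.13. Irf8, a factor that dendritic cells of type 1 need and that acts on the Il12b promoter, had 1186 CPM in Il12b-expressing and 381 CPM in Il12b-zero cells of CpG. It had 1799 and 497 CPM in R848 and 916 and 285 CPM in Control. Its ratios were 3.11 (2.92 to 3.32), 3.62 (3.33 to 3.92) and 3.22 (2.76 to 3.75). These intervals do not hold the spread between cells or mice, and whether the ratios differ between libraries was not tested. Jun, an AP-1 subunit, was called higher in CpG (947 against 395 CPM) and R848 (690 against 215 CPM) and had 169 against 255 CPM in Control. Zeb2, a repressor that dendritic cells of type 2 and plasmacytoid cells need, had 338 against 126 CPM in CpG, 161 against 54.0 CPM in R848 and 162 against 133 CPM in Control.

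Of the list of NF-kB subunits and regulators 2 of 31 measured genes were called higher in CpG, 2 of 31 in R848 and 4 of 30 in Control, with 0, 0 and 1 lower and medians of 0.07, 0.17 and 0.14. Of all genes, 3.44%, 8.79% and 3.51% were called higher, with medians of 0.10, 0.20 and -0.13. The list was not tested against all genes. Nfkbiz and Tnip3 were the 2 called in every library. Nfkbiz, which encodes the nuclear protein IkB-zeta, had 462 and 120 CPM in CpG, 144 and 38.2 CPM in R848, and 291 and 80.0 CPM in Control. Tnip3, an inhibitor of NF-kB signalling, had 543 and 187 CPM in CpG, 366 and 34.2 CPM in R848, and 238 and 72.5 CPM in Control. Rel, the subunit c-Rel, had 339 and 320 CPM in CpG, 450 and 451 CPM in R848 and 552 and 459 CPM in Control, and was not called. Among the feedback inhibitors Socs3, which blocks signalling by the interleukin-6 receptor, was called in all 3 libraries, with 233 and 59.4 CPM in CpG, 90.1 and 16.4 CPM in R848, and 192 and 58.3 CPM in Control. The list gave 1 of 15 measured genes higher in CpG, 1 of 13 in R848 and 4 of 15 in Control, with 1 lower in R848. These small counts stand beside the same shares of all genes and were not tested against them.

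Among genes called in the same direction in both treated libraries, the 12 with the highest mean log2 ratios were Kctd14, Lta, Ccl4, Krt222, Il6, Tnf, Tnip3, Nupr1, Dll4, Socs3, Stap1 and Foxp1. Kctd14 had 360 CPM in Il12b-expressing and 52.5 CPM in Il12b-zero cells of CpG, and 228 and 8.08 CPM in R848. Its 26.5 and 21.1 CPM in Control were not called, and without the 1 member cell with most of its UMIs there its log2 ratio was -1.14 in place of 0.27. Krt222, a gene of the keratin family, had 161 and 17.9 CPM in CpG and 90.1 and 6.42 CPM in R848, and 0 UMIs in 40 Control members, which allows up to 9.92 CPM, against 5.58 CPM in Control Il12b-zero cells. Nupr1, a stress-induced nuclear protein, had 505 and 160 CPM in CpG and 197 and 26.5 CPM in R848. Stap1, a signalling adaptor, had 190.5 and 75.4 CPM in CpG and 73.2 and 8.3999 CPM in R848. Foxp1, a forkhead transcription factor, had 164 and 50.9 CPM in CpG and 113 and 21.8 CPM in R848. In Control, 5 of these 12 genes were called higher (Ccl4, Il6, Tnf, Tnip3 and Socs3) and 7 were not called.

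The 8 genes with the lowest mean ratios were Tnni2, Apol10b, Gstt1, Lgals1, Tnfrsf18, Hist1h2bc, Apol7c and Ddt. Apol7c, of the apolipoprotein L family and a gene of maturing dendritic cells, had 1208 CPM in Il12b-expressing and 4503 CPM in Il12b-zero cells of CpG. It had 2188 and 4420 CPM in R848, where 1 member cell held 47.7% of its UMIs and the log2 ratio without that cell was -1.87 in place of -1.01. In Control it had 2997 and 1837 CPM, a log2 ratio of 0.70. Apol10b, of the same family, had 36.4 and 166 CPM in CpG, 42.2 and 145 CPM in R848, and 69.5 and 41.5 CPM in Control. Reads of the apolipoprotein L genes and of the histone gene Hist1h2bc can be shared with near-identical copies, so their levels are uncertain. Tnfrsf18, which encodes the costimulatory receptor GITR, had 43.7 and 181 CPM in CpG and 132 and 291 CPM in R848. Lgals1, which encodes galectin-1, had 32.3 and 102 CPM in CpG and 73.2 and 230 CPM in R848. Gstt1, a glutathione transferase, had 35.4 and 130 CPM in CpG and 14.1 and 57.7 CPM in R848. Tnni2, a troponin subunit, had 17.7 and 51.8 CPM in CpG and 19.7 and 176 CPM in R848. Ddt, D-dopachrome tautomerase, had 222 and 710 CPM in CpG and 158 and 369 CPM in R848. None of the 8 was called in Control.

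**Figure D3:**
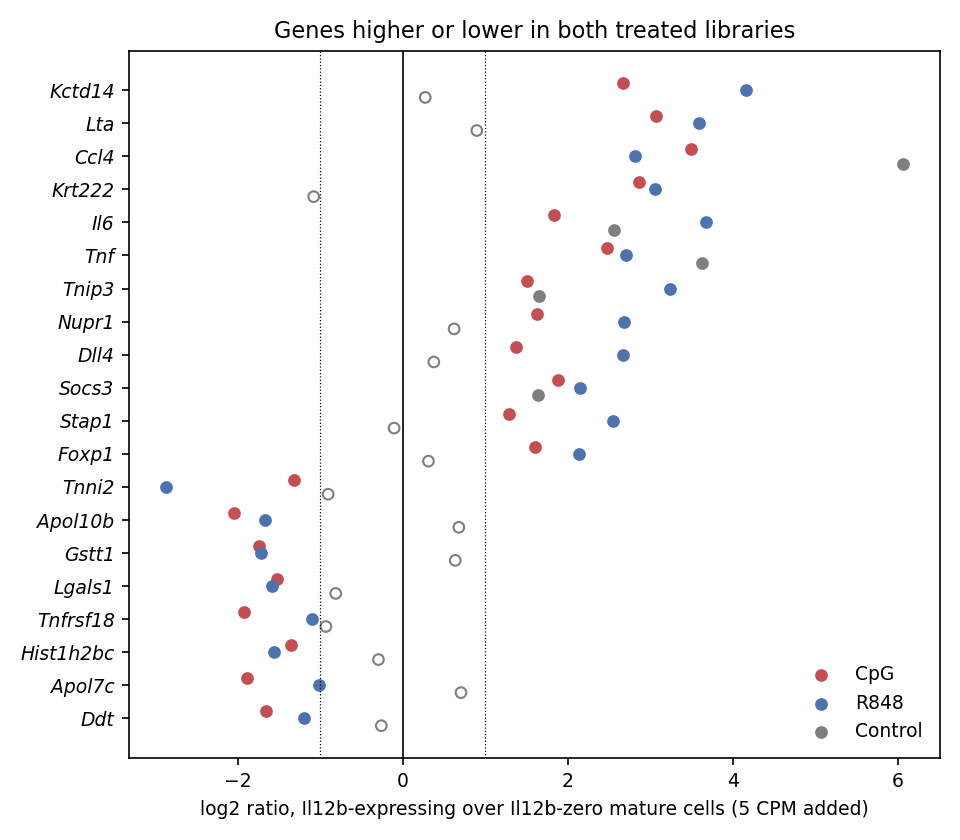
Log2 ratios of Il12b-expressing over Il12b-zero mature cells (5 CPM added) for the 12 highest and 8 lowest genes called in both treated libraries, in CpG, R848 and Control. Filled points are called at least 2-fold, open points are not, and dotted lines mark 2-fold. Control points of the upper 12 genes are filled for Ccl4, Il6, Tnf, Tnip3 and Socs3 only.

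The lists of antigen presentation and interferon genes had no higher calls in treated members. Of all genes, 3.44% in CpG and 8.79% in R848 were called higher, so few calls would be met in lists this short. Called lower were 1.75% of all genes in CpG, 2.67% in R848 and 5.16% in Control, where 3.51% were called higher. The medians of all genes were 0.10 in CpG, 0.20 in R848 and -0.13 in Control. The lists were not tested against all genes. Of the MHC class II list 0 of 13 measured genes were higher and 1 lower in CpG, 0 of 14 and 6 in R848 and 0 of 14 and 2 in Control, with medians of -0.72, -0.88 and -0.26. Ciita, the master activator of MHC class II genes, had 9.37 and 22.3 CPM in CpG, 2.82 and 29.2 CPM in R848, and 29.8 and 72.5 CPM in Control. Of the type I interferon-stimulated list 0 of 41 measured genes were higher and 6 lower in CpG, 0 of 39 and 4 in R848 and 3 of 23 and 2 in Control, with medians of -0.52, -0.20 and -0.47. Isg15, a ubiquitin-like protein induced by interferon, had 2269 and 2642 CPM in CpG, 1819 and 1795 CPM in R848, and 473 and 175 CPM in Control, and was called higher in Control. Of 22 measured MHC class I genes, 0 were called in CpG and R848, and 1, Nlrc5, was higher in Control. The maturation list gave 0 of 41 genes higher and 2 lower in CpG, 2 of 43 and 1 in R848 and 6 of 42 and 2 in Control, with medians of -0.06, 0.00 and 0.10.

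Levels were also followed over classes of mature cells with 0, 1 to 2, 3 to 9, 10 to 29 and 30 or more Il12b UMIs. In CpG, Il6 had 205, 458, 587, 890 and 924 CPM over these classes. In R848 it had 21.4, 100, 184, 315 and 663 CPM, and in Control 47.1, 25.1, 203, 305 and 421 CPM. Il6 was thus higher in each further class of the treated libraries and, apart from the class of 1 to 2 UMIs, in Control. Irf8 had 381, 957, 959, 1346 and 1508 CPM in CpG, 497, 986, 1249, 1982 and 2735 CPM in R848, and 285, 803, 628, 759 and 1469 CPM in Control. Nfkbiz had 120, 197, 269, 523 and 815 CPM in CpG, 38.2, 69.2, 121, 152 and 181 CPM in R848, and 80.0, 25.1, 186, 315 and 399 CPM in Control. Cells with 1 or 2 Il12b UMIs, which are not members, therefore stood above the Il12b-zero cells for Il6 and Irf8 in the treated libraries. Apol7c had 4503, 2866, 1554, 1000 and 676 CPM in CpG. In R848 it had 4420, 3179, 3925, 112 and 1012 CPM, and in Control 1837, 5712, 3008, 2434 and 3634 CPM. A fall with each further class was thus seen for Apol7c in CpG alone. The highest class held 28 cells in CpG, 11 in R848 and 11 in Control. These classes are cut from the measure that chose the members and from depth as well, with median UMIs of 5775 in the lowest and 7819 in the highest CpG class.

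**Figure D4:**
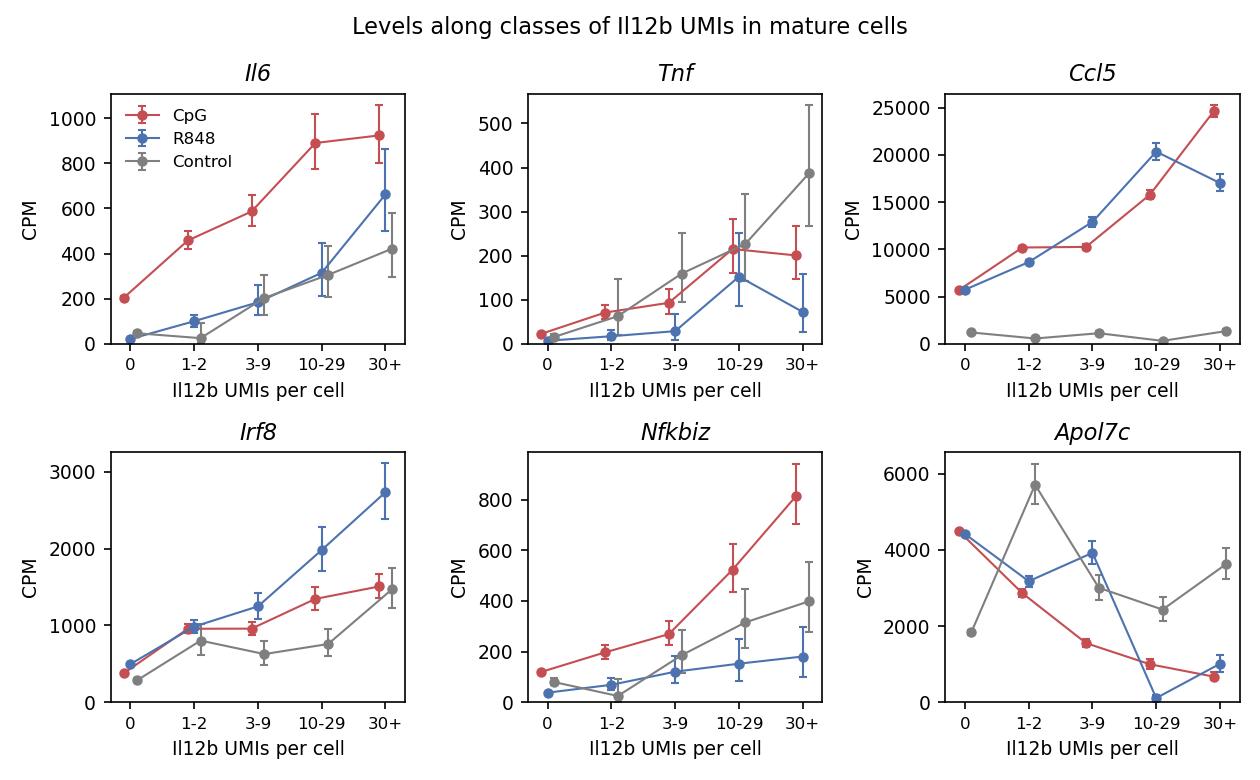
Levels in CPM of Il6, Tnf, Ccl5, Irf8, Nfkbiz and Apol7c in mature cells with 0, 1 to 2, 3 to 9, 10 to 29 and 30 or more Il12b UMIs, for CpG, R848 and Control. Error bars are 95% Poisson intervals for counting error. Il6 reaches 924, 663 and 421 CPM in the highest class, while Ccl5 stands above its 0 class in every further class of CpG and R848 and reaches at most 1355 CPM in Control.

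Over single mature cells, the genes whose log-scaled UMIs per 10,000 ran most like Il12b were ranked by the mean Pearson correlation of the 2933 CpG and 2244 R848 cells. The first 5 were Il6 (0.33), Kctd14 (0.32), Lta (0.31), Krt222 (0.30) and Tnip3 (0.29). The next 5 were Tnf (0.28), Ppfia3 (0.28), Ccl4 (0.26), Tnfsf4 (0.24) and Fam89a (0.23). These correlations are weak and describe sparse counts of cells that share a library and differ in depth. Tnfsf4, which encodes OX40 ligand, had UMIs in 1 CpG, 8 R848 and 0 Control members, with correlations of 0.06 in CpG and 0.42 in R848.

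Lineage was described with Xcr1, the chemokine receptor of dendritic cells of type 1. Its UMIs were sparse, and Xcr1-positive mature cells were deeper than Xcr1-zero ones. Median depths were 9054 against 5736.5 UMIs in CpG, 7982 against 5299 in R848 and 6761 against 5138.5 in Control. A mature cell with no Xcr1 UMI may therefore still be of type 1. Members were 1 of 63 Xcr1-positive mature cells in CpG (1.59%, interval 0.0402% to 8.53%), 5 of 187 in R848 (2.67%, 0.874% to 6.13%) and 6 of 18 in Control (33.3%, 13.3% to 59.0%). Among mature cells with no Xcr1 UMI they were 130 of 2870 in CpG (4.53%), 43 of 2057 in R848 (2.09%) and 34 of 328 in Control (10.4%). The intervals of the Xcr1-zero shares were 3.80% to 5.36%, 1.52% to 2.81% and 7.29% to 14.2%. They hold counting error only, and a difference by lineage was not tested. Xcr1 UMIs were found in 0.763% of CpG, 10.4% of R848 and 15% of Control members. In Il12b-zero cells the shares were 2.21%, 8.54% and 3.75%. Cadm1, an adhesion molecule of the same lineage, had UMIs in 3 CpG, 0 R848 and 10 Control members, and was called higher in Control, at 103 against 8.68 CPM. Of the cDC1 marker list 1 of 7 measured genes was called higher in CpG, 2 of 9 in R848 and 6 of 13 in Control, with none lower and medians of -0.19, 0.43 and 0.82. Irf8, given above, is on this list and is the 1 gene called in CpG. With Irf8 included, the list summed to 1854 and 967 CPM in Il12b-expressing and Il12b-zero cells of CpG. The sums were 2568 and 1117 CPM in R848, and 1902 and 914 CPM in Control. Irf8 made up most of the member sums in CpG and R848, so these sums do not describe the other genes of the list. The cDC2 list gave 0 of 7 higher and 2 lower in CpG, 2 of 10 and 5 in R848 and 1 of 11 and 2 in Control, with medians of -0.23, -0.65 and -0.57. It summed to 431 and 390 CPM in CpG, 400 and 485 CPM in R848, and 972 and 1496 CPM in Control. For comparison, 3.44%, 8.79% and 3.51% of all genes were called higher and 1.75%, 2.67% and 5.16% lower. All genes had medians of 0.10, 0.20 and -0.13. Both marker lists are short and were not tested against all genes.

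Markers of other cells differed between members and Il12b-zero cells in part. The 13 LysoDC and macrophage markers summed to 1532 CPM in Il12b-expressing and 1328 CPM in Il12b-zero cells of CpG, 2427 and 1206 CPM in R848, and 4651 and 4992 CPM in Control. In R848 the genes Lyz2 and Apoe were called higher, and 1 member cell held 44.7% of the Lyz2 UMIs. Trem2 and Cd163, also on this list, had 0 UMIs in all classes and so cannot tell members from Il12b-zero cells. Cx3cr1 had at most 3 UMIs in the members of a library. In all 2 of the 13 were at 0 in CpG, 5 in R848 and 7 in Control members. The B cell gene Cd79b had 68.7 and 20.1 CPM in CpG and 50.7 and 8.80 CPM in R848, while Pax5 and Cd22 were at 0 UMIs. The 9 B and plasma cell markers summed to 89.5 and 51.3 CPM in CpG, 56.3 and 31.4 CPM in R848 and 29.8 and 34.1 CPM in Control. The 12 plasmacytoid markers summed to 456 and 557 CPM in CpG, 805 and 691 CPM in R848, and 99.2 and 139 CPM in Control, with Tcf4 called higher in both treated libraries. The 13 T and NK cell markers summed to 202 and 173 CPM in CpG, 270.3 and 213 CPM in R848, and 56.2 and 132 CPM in Control. Most of this was Il7r, the interleukin-7 receptor chain, at 173 and 142 CPM in CpG, 234 and 144 CPM in R848, and 26.5 and 90.5 CPM in Control. The 11 neutrophil and monocyte markers summed to 778 and 664 CPM in CpG, 735 and 1141 CPM in R848, and 953 and 1463 CPM in Control, nearly all of it Plac8. The 10 epithelial and stromal markers summed to 45.8 and 49.4 CPM in CpG, 81.7 and 37.1 CPM in R848, and 62.8 and 84.9 CPM in Control. The part of these cells in the results was not tested.

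Proliferation genes were called higher for 3 of 15 measured genes in CpG and 7 of 11 in R848, with none lower, and for 0 of 9 in Control, where 5 were lower, with medians of 0.61, 1.18 and -1.36. Shares of all genes were 3.44% higher in CpG, 8.79% higher in R848 and 5.16% lower in Control. Stmn1, a regulator of microtubules in dividing cells, had 134 and 74.2 CPM in CpG, 158 and 52.7 CPM in R848, and 6.62 and 79.3 CPM in Control. In R848 1 member cell held 41.1% of its UMIs. Cells with 3 or more UMIs of 6 cell division genes were 11 of 131 CpG, 4 of 48 R848 and 2 of 40 Control members, against 4.54%, 2.04% and 3.41% of Il12b-zero cells. Simulated-doublet scoring marked 9 CpG, 4 R848 and 1 Control members (6.87%, 8.33% and 2.50%), against 2.63%, 1.99% and 2.39% of Il12b-zero cells. The part of doublets in these values was not tested.

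Il12b-expressing cells were then compared between libraries. CpG against Control gave 768 of 4716 genes (16.3%) higher and 291 (6.17%) lower in CpG. R848 against Control gave 657 of 4609 genes (14.3%) higher and 213 (4.62%) lower in R848. Both share the 40 Control cells. R848 against CpG gave 221 of 4801 genes (4.6%) higher and 214 (4.46%) lower in R848. These shares of all genes are the measure for the list counts that follow. The medians of all genes were 0.36, 0.32 and -0.03, and with centring on them the calls were 525 higher and 372 lower for CpG against Control and 454 and 291 for R848 against Control. Treatment, injection and library cannot be told apart in these comparisons.

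Interferon-induced genes were among the 5 highest against Control in both treated libraries. Irf7, a factor that amplifies interferon responses, had 256 CPM in CpG, 642 CPM in R848 and 6.62 CPM in Control members. Ifi27l2a, an interferon-induced gene, had 505 CPM in CpG, 563 CPM in R848 and 16.5 CPM in Control members. Rsad2, which encodes the antiviral protein viperin, had 21.9 CPM in CpG and 101 CPM in R848 members and 0 UMIs in Control members. Its R848 level was 10.2-fold the limit of 3 counts over the Control class. That ratio leaves out the counting error of the R848 level. In R848, 1 cell held 61.1% of the Rsad2 UMIs. Of the type I interferon-stimulated list 26 of 37 measured genes were higher in CpG and 24 of 37 in R848 members against Control, with 0 and 2 lower and medians of 1.68 and 1.93. In Il12b-zero cells, too, Irf7 was higher in the treated libraries, with 478 CPM in CpG, 624 CPM in R848 and 22.9 CPM in Control. Guanylate-binding and immunity-related GTPase genes were higher for 7 of 8 in CpG and 3 of 7 in R848, with none lower. Gbp2 had 463 CPM in CpG, 152 CPM in R848 and 52.9 CPM in Control members.

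Krt222 and Sod3 were also among the 5 highest in CpG, with 155 and 97 UMIs in CpG members and 0 in Control members. Their CpG levels were 16.3-fold and 10.2-fold the limit of 3 counts, with the counting error of the CpG levels left out. Sod3, extracellular superoxide dismutase, came from 16 cells. Ms4a4c, a membrane protein gene, had 269 CPM in CpG and 6.62 CPM in Control members. Sct, which encodes the hormone secretin, had 113 CPM in 10 R848 members and 0 UMIs in Control members. The R848 level of Sct was 11.35-fold the limit of 3 counts, again without its own counting error. Among chemokines, Ccl5 had 16.4-fold (14.5 to 18.5) the Control level in CpG members and 17.3-fold (15.4 to 19.6) in R848 members. Ccl17 was called lower in both, at 720 CPM in CpG and 318 CPM in R848 against 2239 CPM in Control.

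MHC class II genes were lower in treated members, with 0 of 14 measured genes higher and 12 lower in CpG and 1 higher and 9 of 14 lower in R848 against Control, and medians of -2.01 and -1.70. H2-Aa, the alpha chain of a class II molecule, had 1939 CPM in CpG, 2937 CPM in R848 and 11759 CPM in Control members. The invariant chain Cd74 had 10158 CPM in CpG, 12992 CPM in R848 and 43946 CPM in Control members. In Il12b-zero cells H2-Aa had 2956 CPM in CpG, 6110 CPM in R848 and 10842 CPM in Control, so the order was the same outside the members. The 3 lowest genes in CpG were Il1r2, the decoy receptor of interleukin-1 (3 UMIs against 40 in Control members), Rasgef1b (1 against 28) and Cadm1 (3 against 31). In R848 they were Cadm1 (0 against 31), Rasgef1b (0 against 28) and Clec4n, which encodes the lectin receptor dectin-2 (0 against 22, of which 59.1% came from 1 cell). Against the limit of 3 counts these genes were 12.1-fold, 10.96-fold and 8.61-fold lower in R848 members. These ratios leave out the counting error of the Control counts.

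Between the treatments, of 12 measured chemokines 0 were higher, 7 were lower and 5 were not called in R848 against CpG members, with a median of -1.14. Ccl5 was among those not called, at 15932 CPM in R848 and 15054 CPM in CpG members. Ccl3 had 36.6 CPM in R848 and 327 CPM in CpG members, a ratio of 0.112 (0.0590 to 0.194). Il6 had 332 CPM in R848 and 742 CPM in CpG members, a ratio of 0.448 (0.365 to 0.545). The type I interferon list had 3 of 39 genes higher and 2 lower and a median of -0.02. The 5 highest genes in R848 were Il23a, Tnfsf4, Flrt3, Sct and Laptm4b. Flrt3, an adhesion protein, had 158 CPM in 21 R848 members and 14.6 CPM in 10 CpG members. Tnfsf4 had 22 UMIs in R848 and 1 UMI in CpG members, a ratio of 59.5 (9.62 to 2456). For Il23a, whose log2 ratio was 4.33, leaving out the 1 cell that held 97.1% of its UMIs gave 0.65. The 3 lowest were Saa3, Clec4a1 and Id3. Saa3, an acute-phase apolipoprotein, had 66 UMIs in CpG members, 61 of them in 1 cell, and 0 in R848 members. Clec4a1, a lectin receptor, had 8.45 CPM in R848 and 112 CPM in CpG members, and Id3, an inhibitor of DNA-binding factors, had 2.82 CPM in R848 and 59.3 CPM in CpG members.

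**Figure D5:**
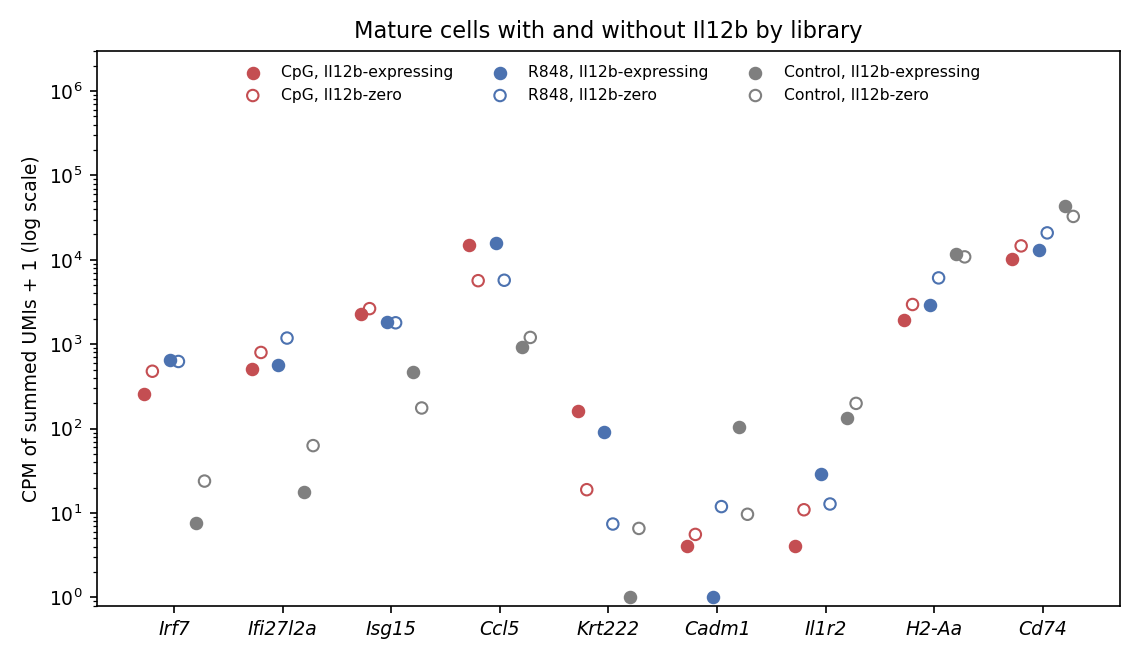
CPM of summed UMIs plus 1, on a log scale, of 9 genes in Il12b-expressing (filled) and Il12b-zero (open) mature cells of CpG, R848 and Control. Irf7 and Ifi27l2a stand higher and H2-Aa and Cd74 lower in both treated libraries in filled and open points alike, whereas Krt222 separates filled from open points in CpG and R848.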

How the data were processed

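The deposited matrices of 3 libraries hold UMI counts for each gene in each cell barcode, per the file headers whole numbers, with no normalisation by the authors. Reads were aligned to mm10 and counted with Cell Ranger 2.0.0, per the submitters' processing notes, against an annotation release not given in the sources used here. The files of barcodes and of the 27998 genes hold no measurement.

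The members and the 26 gene lists were chosen with earlier results of these data known. UMIs of all cells in a class were added up and scaled to CPM, and log2 ratios were taken with 5 CPM added, for genes with at least 20 CPM in 1 class. Intervals are exact at 95%, by the Poisson method for levels, the conditional binomial for ratios and Clopper-Pearson for shares. PCR duplicates are collapsed by UMI, and intervals and limits for a count of 0 (3 counts) cover counting error only. The steps were checked on simulated class sums with Poisson counts and no spread between cells. Genes set 4-fold higher were called in 100% of cases in each library. Genes set 4-fold lower were called in 100% in CpG, 98% in R848 and 98% in Control. Of unchanged genes, 0.0736% in CpG, 1.55% in R848 and 2.32% in Control were called. Without spread between cells, these shares do not measure false calls in the real libraries. Class sums were 960659 UMIs in CpG, 355128 in R848 and 302322 in Control members, and 16789030, 12619246 and 1613323 in Il12b-zero cells, so R848 and Control values are the least precise. Analysis used Python 3.11.15, numpy 2.4.6, scipy 1.17.1, pandas 2.3.3 and scikit-learn 1.9.0.

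Named genes within a library were the 12 highest and 8 lowest mean log2 ratios of CpG and R848 among genes called in the same direction in both, with at least 50 CPM and 20 UMIs in the higher class. Between libraries they were the 5 highest and 3 lowest of each comparison under the same minimum. Immunoglobulin, T cell receptor, haemoglobin, ribosomal protein, mitochondrial and Gm and Rik genes and the genes of the rule were not eligible. Genes of the lists were added, and genes called in all 3 libraries were named after their values were seen. Of 549 list genes, 13 were not among the matrix genes. Doublets were not removed in the main values. They were scored from 2 simulated doublets per cell, 50 neighbours, 2000 variable genes and 30 components, and the top 0.8% per 1000 cells were left out as an alternative. Other alternatives were 1 or 20 CPM added, no minimum or 100 CPM, median centring, other Il12b and maturity thresholds, a depth window, thinning to 5000 UMIs, Xcr1-positive or Xcr1-zero cells, proliferating cells left out, equal weight per cell and 5% free RNA taken away. Leaving out the member cell with the most UMIs of a gene was added after seeing the data. Some marker genes are not reported here.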

Additional observations from a re-analysis of the deposited data

Results flagged for a closer look

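Laptm4b, a lysosomal membrane protein gene, was called lower in the members of 1 library and higher in those of another. Its log2 ratio of Il12b-expressing to Il12b-zero mature cells was -1.62 in CpG (34.4 against 116 CPM) and 2.07 in Control (261 against 58.3 CPM), and it was -0.69 in R848 (180 against 294 CPM). The difference between the libraries was not tested, since each group is 1 library.

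Il12b was also found in cells that no comparison here uses. Among cells over the lysozyme and complement limit, 20.4% in R848 (interval 18.7% to 22.1%) held 3 or more Il12b UMIs, 449 of 2202 cells. The share was 1.30% in CpG (18 of 1383) and 0.794% in Control (18 of 2266).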

How the results depend on the processing

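Of 1587 values recomputed under an alternative, 1276 stayed within the spread of counting error or within 1.5 times the count, 311 moved further and 0 called values changed sign. All values rest on 1 library per group, and counting error does not hold the spread between mice. Numbers of genes called moved with the CPM added, the minimum and the Il12b threshold. In the CpG within-library comparison they were 117 with 20 CPM added, 371 with no minimum, 84 with a 100 CPM minimum, 101 with Il12b at least 1 UMI, 492 with Il12b at least 10 UMIs and 395 in the depth window, against 240. Of genes called, R848 within its library gave 212, 816, 137, 121 and 913 for the first 5 of these, against 519. In Control within they were 162 with 20 CPM added and 81 with a 100 CPM minimum, against 378. For CpG against Control they were 661 and 365, against 1059, for R848 against Control 336 with a 100 CPM minimum, against 870, and for R848 against CpG 175, 127 and, with Il12b at least 1 UMI, 264, against 435. Member shares of mature cells were 10.6% in CpG and 6.11% in R848 with Il12b at least 1 UMI, and 2.22% in CpG, 1.02% in R848 and 6.94% in Control with at least 10 UMIs. CpG had 6.00% with 3 UMIs per 10,000. Control had 18.7% in the depth window and 17.1% after thinning, where its Xcr1-zero cells had 16.1%. The single Xcr1-positive CpG member was lost with doublets removed and after thinning, which gave 0%. The share of higher among called genes moved by over 10 points with median centring, from 66.3% to 54.0% in CpG within, from 76.7% to 60.2% in R848 within, from 40.5% to 50.8% in Control within, from 72.5% to 58.5% in CpG against Control and from 75.5% to 60.9% in R848 against Control. It also moved from 66.3% in CpG within to 56.2% in the depth window, from 76.7% in R848 within to 91.7% with Il12b at least 1 UMI, from 40.5% in Control within to 63.0% with a 100 CPM minimum and 51.6% with the maturity limit at 30 per 10,000, and from 50.8% in R848 against CpG to 39.4% with Il12b at least 1 UMI. Median centring and the CPM added change the scale, the other alternatives the cells or genes compared, and the cause was not tested. Xcr1-positive cells alone left fewer than 10 cells in a class and gave no value. No paired analysis was possible because each group is 1 library.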

Other observations

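Glucose-use genes differed between libraries in Il12b-expressing cells. Of 15 measured genes of glycolysis and glucose uptake, 0 were higher and 8 lower in CpG members and 0 higher and 4 lower in R848 members against Control members, with median log2 ratios of -1.01 and -0.80 beside 0.36 and 0.32 for all genes. Hk2, a hexokinase, and Eno1, an enolase, were lower in both, with log2 ratios of -2.03 and -1.81 in CpG and -2.36 and -1.25 in R848. Within libraries 0 of 12 measured genes were called in CpG, 1 of 12 was lower in R848 and 1 of 15 was higher in Control members against Il12b-zero cells.

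In Control, 2 abundant genes separated Il12b-expressing from Il12b-zero cells. Cst3, a protease inhibitor gene, had 22830 CPM in Il12b-expressing and 6892 CPM in Il12b-zero cells, and Fabp5, a fatty acid-binding protein gene, had 761 and 3669 CPM. In CpG Cst3 had 8513 and 13382 CPM and Fabp5 3386 and 3296 CPM. In R848 Cst3 had 16282 and 17349 CPM and Fabp5 2861 and 2947 CPM. These genes were picked after their values were seen.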
